A study of Homo sapiens with 18 samples.

Results

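Processed pseudogenes are copies of spliced messenger RNAs, and 1833 of the 10161 listed by GENCODE 29 were present in these libraries at 1 or more TPM (transcripts scaled to a fixed library total) in at least 3 of 18 libraries. TPM corrects for transcript length, and values were summed over the transcripts of a gene. The threshold chose the members, so their presence at 1 TPM is a description. Of the members, 221 are named as copies of a ribosomal protein gene and are called ribosomal protein copies here, and the other 1612 carry another name. The names do not separate the families fully, since 234 of the 1612, mostly named after clones, have a cytosolic ribosomal protein gene as their best match on the same strand. These 234 summed to 4251 TPM ± 529 in EVs (SD, n = 9) and 4423 TPM ± 669 in cells, and count as other members throughout. Without AC026403.1, the remaining 233 summed to 2593 TPM ± 522 in EVs and 4285 TPM ± 694 in cells. The table held 57865 genes in all. Among the 8328 processed pseudogenes under the threshold, 6134 were listed at 0 in every library. The members nearest to the threshold were AL035555.1, NPM1P43 and AC126615.2, whose third-highest TPM was 1.00003, 1.0029 and 1.00388. LDHAP5, RSU1P3 and AL606490.2 fell just short, at 0.999101, 0.99684 and 0.996533.

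A processed pseudogene arises when the LINE-1 retrotransposon machinery reverse transcribes a messenger RNA and inserts the copy elsewhere in the genome. Such copies lack introns and usually their promoter, so they are seldom transcribed from a start site of their own, and many are read as part of a neighbouring or surrounding gene. Ribosomal protein genes and other housekeeping genes have the largest families, because their messenger RNAs are abundant in the germline. Extracellular vesicles (EVs) are membrane-bound particles released by cells that carry RNA and protein.

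HEK293T, a line derived from human embryonic kidney, provided both the cells and the EVs released from them. Cells were wild-type, ATG7-/- (clone F2) or ATG12-/- (clone D9), and every group, controls included, was without serum for 24 h. Each knockout is 1 clone, so a difference between a knockout and wild type cannot be told apart from a difference between clones. ATG7 and ATG12 act in the enzyme cascade that attaches LC3 to membrane lipid, and the study asked whether EV RNA depends on it. The 6 groups hold 3 libraries each, which the labels call biological replicates. All p-values therefore measure the spread between these samples. Stranded total RNA libraries were amplified for 22 cycles and sequenced as 50-base single reads.

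TPM keep no sequencing depth, so the depth of each library is unknown. An EV library had 13255 to 14716 genes at 1 TPM or more, and a cell library 18464 to 20509. The RNA of the targeted genes did not check the labels. ATG7 ranged from 11.2 to 15.6 TPM in ATG7-/- EVs and 13.3 to 19.4 TPM in wild-type EVs, and from 8.06 to 12.9 TPM against 8.14 to 13.1 TPM in cells. ATG12 was 0 to 0.858 TPM in ATG12-/- EVs, against 0.844 to 22.6 TPM in wild type, and 5.18 to 9.18 TPM against 7.61 to 13.5 TPM in cells. In cells, KRT8 (62.9 to 162 TPM) and VIM (12.1 to 29.9 TPM) were present in all 9 libraries, NEFM and NEFL reached 1 TPM in 7 of 9, LIN28B in 6, KRT18 in 4 and PAX2 in 2. Of the markers of other cell types, CD3E, HBB and ALB were listed at 0 in all 18 libraries, PTPRC was 0.489 to 2.60 TPM, PECAM1 0.355 to 1.36 TPM and COL1A1 2.22 to 17.8 TPM.

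The sequences of abundant members show what the read length could and could not separate. Copies of 3 kinds are printed, 5′ to 3′ on the strand of the pseudogene, from the GENCODE 29 transcripts with coordinates on GRCh38. Capitals mark bases that differ from the parent's coding sequence or are not in it. Parent bases missing from a copy are not marked (in RPL39P26, 155 bases align to bases 1 to 156 of the parent). The first are copies of RPL39, a protein of the large ribosomal subunit, which differ in how far they have diverged: RPL39P3 (chr6:73373108-73373263, minus strand) is identical to the coding sequence over all 156 bases, RPL39P6 (chr1:11232965-11233112, plus strand) has 9 mismatches over 148 bases, and RPL39P26 (chr11:13685499-13685655, minus strand) has 13 mismatches and 2 inserted bases over 157.
RPL39P3: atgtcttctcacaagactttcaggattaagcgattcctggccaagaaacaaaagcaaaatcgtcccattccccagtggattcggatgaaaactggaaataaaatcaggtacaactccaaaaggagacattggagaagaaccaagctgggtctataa
RPL39P6: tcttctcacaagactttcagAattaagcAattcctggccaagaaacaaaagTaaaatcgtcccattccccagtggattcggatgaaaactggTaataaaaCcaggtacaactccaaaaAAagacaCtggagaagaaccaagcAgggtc
RPL39P26: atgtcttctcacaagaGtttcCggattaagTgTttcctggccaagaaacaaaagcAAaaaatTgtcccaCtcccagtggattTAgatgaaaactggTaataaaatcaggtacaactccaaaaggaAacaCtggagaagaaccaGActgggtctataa
The next are copies of other genes that no 50-base read, or few of them, can separate from the parent. SRP9P1 (chr10:91807179-91807439, minus strand) equals the 261-base coding sequence of SRP9, a protein of the signal recognition particle. RPS28P7 (chr11:82689559-82689768, plus strand) equals the 210-base coding sequence of RPS28, a small-subunit protein. AC026403.1 (chr5:166382305-166382599, plus strand) is a partial copy of RPLP0, the stalk protein of the large subunit, with 1 mismatch in 295 bases.
SRP9P1: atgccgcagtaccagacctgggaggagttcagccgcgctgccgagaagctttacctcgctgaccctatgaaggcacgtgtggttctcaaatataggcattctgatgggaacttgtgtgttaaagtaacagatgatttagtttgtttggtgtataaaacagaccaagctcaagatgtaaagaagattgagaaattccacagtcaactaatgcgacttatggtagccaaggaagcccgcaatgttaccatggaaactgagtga
RPS28P7: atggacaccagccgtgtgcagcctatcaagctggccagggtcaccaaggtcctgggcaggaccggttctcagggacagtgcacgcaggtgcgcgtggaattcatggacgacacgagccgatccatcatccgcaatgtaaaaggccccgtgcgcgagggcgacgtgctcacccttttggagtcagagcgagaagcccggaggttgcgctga
AC026403.1: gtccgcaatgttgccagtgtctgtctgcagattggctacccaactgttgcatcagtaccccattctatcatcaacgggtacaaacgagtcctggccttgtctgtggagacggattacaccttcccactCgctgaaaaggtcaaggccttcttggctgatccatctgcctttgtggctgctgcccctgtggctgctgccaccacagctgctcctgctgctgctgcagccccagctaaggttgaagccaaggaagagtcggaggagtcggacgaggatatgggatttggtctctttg
The last are the pair of most abundant members named after clones, which read antisense to a ribosomal protein coding sequence. The printed stretch of AD000091.1 (chr19:15611656-15611909, minus strand) has 4 mismatches in 254 bases to the reverse complement of RPL23A, a large-subunit protein, and the gene lies opposite an exon of the pseudogene RPL23AP2. AD000091.1 also matches the coding gene HLA-F on its own strand. The stretch of AC093249.4 (chr16:30587662-30587735, minus strand) has 1 mismatch in 74 bases to the reverse complement of RPL41, the smallest ribosomal protein. Capitals here mark differences from the reverse complement. Missing parent bases are again not marked. The 254 bases of AD000091.1 span bases 1 to 257 of the coding sequence of RPL23A, and the 74 of AC093249.4 bases 2 to 78 of that of RPL41.
AD000091.1: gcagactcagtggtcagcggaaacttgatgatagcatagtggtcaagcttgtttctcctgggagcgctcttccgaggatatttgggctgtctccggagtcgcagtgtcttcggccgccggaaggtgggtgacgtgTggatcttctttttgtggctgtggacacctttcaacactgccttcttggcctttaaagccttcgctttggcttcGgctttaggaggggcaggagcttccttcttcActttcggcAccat
AC093249.4: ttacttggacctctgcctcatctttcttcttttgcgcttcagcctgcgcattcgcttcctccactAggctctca
Reads of a pseudogene identical to its parent cannot be assigned by sequence, and the strand setting of the quantification is not given in the sources used here. The levels of such members are therefore uncertain, and their split with the parent, or with a gene on the opposite strand, cannot be told apart from transcription of the pseudogene.

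Members were fewer in EVs than in cells, and a few of them held most of the signal. At least 1 TPM was reached by 326 to 409 members in an EV library, or 2.43% to 2.78% of the genes at that level, and by 918 to 1281 members in a cell library, or 4.97% to 6.25%. The median member had a mean of 0.661 TPM in EVs and 2.74 TPM in cells. All members together summed to a mean of 61842 TPM in EVs and 40750 TPM in cells. AD000091.1 alone held 34.1% of that sum in EVs and 22.6% in cells, and the 10 most abundant members of each held 79.8% and 52.4%. Among ribosomal protein copies, RPL39P3 held 74.2% in EVs and 50.9% in cells. The presence of a member in all 18 libraries at 1 TPM was rare, with 6 ribosomal protein copies and 45 others. In all 9 EV libraries 620 members were listed at 0, and in all 9 cell libraries 23 were.

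Ribosomal protein copies took a larger share of EV libraries than of cell libraries in each genotype. Their summed share was 1.45%, 1.18% and 1.24% in wild-type EVs, 1.41%, 1.32% and 1.62% in ATG7-/- EVs, and 1.81%, 1.89% and 1.34% in ATG12-/- EVs. In cells it was 0.541%, 0.483% and 0.574% in wild type, 0.426%, 0.571% and 0.694% in ATG7-/-, and 0.697%, 0.760% and 0.876% in ATG12-/-. Every EV library stood above every cell library. The means were 1.47% ± 0.248 (SD, n = 9) and 0.625% ± 0.143, a difference of 1.26 on the log2 scale, and the fold was 2.42, 2.61 and 2.15 in wild type, ATG7-/- and ATG12-/-. Because members had been selected by level, the test was made on all 1012 ribosomal protein copies of the table with no threshold. These differed by 1.25 on the log2 scale (exact permutation within genotypes, two-sided, p = 0.00025, the smallest that 8000 arrangements can give). All processed pseudogenes took 6.41% of EV libraries, against 1.47% in the ribosomal and 4.71% in the other members. The sum tested thus rests largely on the members and is not independent of their choice. The difference rested largely on RPL39P3. Without it the means were 0.381% ± 0.0506 in EVs and 0.306% ± 0.0394 in cells, with overlap, and with all transcripts under 200 nt left out the log2 difference was -0.07.

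The coding ribosomal protein genes differed more than their copies did. They took 3.00% ± 0.440 of EV libraries (SD, n = 9) and 0.508% ± 0.159 of cell libraries. The summed TPM of the copies was accordingly 0.642 ± 0.0911 of that of their parents in EVs, between 0.516 and 0.780 over the libraries, and 1.60 ± 0.193 in cells, between 1.30 and 1.88. The copies thus exceeded their parents in sum in all 9 cell libraries and in none of the 9 EV libraries. This rested largely on RPL39P3, which held 50.9% of the sum of the copies in cells. The EV-to-cell difference of the ratio was -1.32 on the log2 scale, and -2.25 without RPL39P3. For the other members with a parent by symbol the ratio was 0.198 ± 0.0208 in EVs and 0.304 ± 0.0805 in cells. Here the ranges, 0.166 to 0.227 and 0.213 to 0.487, overlapped.

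The share of the other members depended on genotype in EVs. It was 3.36%, 3.52% and 3.67% in wild-type EVs, 5.01%, 5.33% and 5.69% in ATG7-/- EVs, and 5.08%, 5.02% and 5.72% in ATG12-/- EVs. In cells it was 3.74%, 4.10% and 3.62% in wild type, 3.42%, 3.20% and 3.12% in ATG7-/-, and 3.25%, 3.41% and 3.19% in ATG12-/-. Both knockouts stood above wild type in EVs and below it in cells, with no overlap. The EV-to-cell fold was 0.921 in wild type, with overlap, and 1.64 and 1.60 in the knockouts. Over all processed pseudogenes other than ribosomal protein copies, with no threshold, the log2 difference was 0.41 (exact permutation within genotypes, two-sided, p = 0.00475). That sum, too, rests largely on the members. In wild type alone the direction was the opposite one. Over the members, the log2 difference was 0.43, and only 0.038 without AD000091.1 and 0.048 without mitochondrial and small noncoding RNA.

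**Figure D1:**
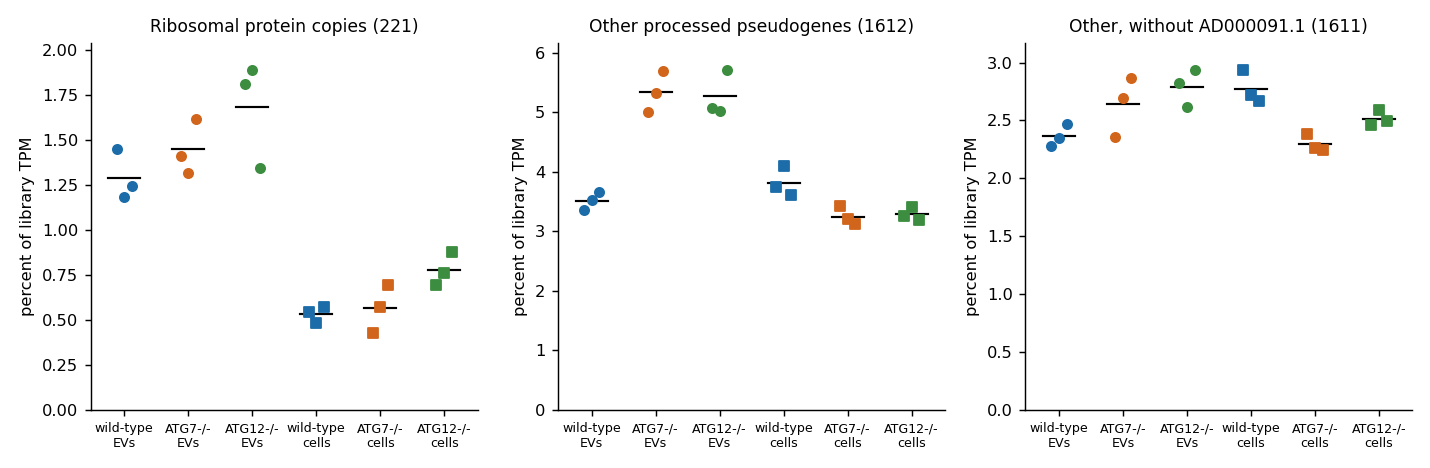
Percent of each library's TPM in ribosomal protein copies (left), in the other processed pseudogenes (middle) and in the others without AD000091.1 (right); each point is 1 library and each bar the mean of 3. Ribosomal protein copies lie at 1.18% to 1.89% in EVs and 0.426% to 0.876% in cells, and the knockout EVs of the middle panel lie at 5.01% to 5.72% against 3.36% to 3.67% in wild-type EVs.

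Most of the EV difference between genotypes lay in AD000091.1. It had 10744, 11763 and 11967 TPM in wild-type EVs, 26480, 26394 and 28257 TPM in ATG7-/- EVs, and 22510, 24103 and 27791 TPM in ATG12-/- EVs. Among cells, the values were 8051, 13756 and 9504 TPM in wild type, 10373, 9409 and 8734 TPM in ATG7-/-, and 7900, 8254 and 6884 TPM in ATG12-/-. All 6 knockout EV libraries stood far above the 3 of wild type, while the cells of each knockout overlapped those of wild type. In EVs the log2 difference was 1.33 (SE 0.09, adjusted p = 0.000345) for ATG7-/- and 1.18 (SE 0.09, adjusted p = 0.00158) for ATG12-/-, by limma with Benjamini-Hochberg adjustment. Both calls were lost when limma was run without trend and with sample weights. The EV-to-cell difference in the knockout exceeded that in wild type by 1.61 (SE 0.22, adjusted p = 0.00404) and 1.88 (SE 0.22, adjusted p = 0.000773). Without AD000091.1, the other members took 1.11 and 1.18 times the wild-type share in ATG7-/- and ATG12-/- EVs.

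Of the genes with related sequence, AC215524.1 and RPL23A did not pass the test in EVs. AC215524.1, which lies opposite an exon of RPL23AP84 and shares all of its 50-base windows with an opposite strand, had 2571 to 4571 TPM in wild-type EVs, 3215 to 5281 TPM in ATG7-/- EVs and 3561 to 4392 TPM in ATG12-/- EVs. Its log2 differences were 0.51 (SE 0.25) and 0.39 (SE 0.25), and the groups overlapped. The coding gene RPL23A was low, at 29.5 TPM ± 14.6 in EVs (SD, n = 9) and 14.0 TPM ± 3.97 in cells, with log2 differences of -0.47 (SE 0.61) and 0.25 (SE 0.61) in the knockout EVs. The difference between AD000091.1 and these genes was not tested. AD000091.1 and AC215524.1 also match HLA-F on their own strand, at 90.8% identity over 97.2% and 91.3% over 100% of the transcript. HLA-F had 8.54 TPM ± 7.43 in wild-type EVs (SD, n = 3), 36.2 TPM ± 20.5 in ATG7-/- EVs and 11.8 TPM ± 13.9 in ATG12-/- EVs. No test of HLA-F is given here. AC093249.4, antisense to RPL41, had 1681 to 2857 TPM in wild-type EVs, 3075 to 5678 TPM in ATG7-/- EVs and 3603 to 5097 TPM in ATG12-/- EVs. Those groups did not overlap, but the log2 differences of 0.97 (SE 0.27, adjusted p = 0.368) and 0.93 (SE 0.27, adjusted p = 0.401) did not pass in limma. RPL41 itself had log2 differences of 1.37 (SE 0.34, adjusted p = 0.268) and 1.66 (SE 0.34, adjusted p = 0.172).

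Beyond AD000091.1, few members were called in knockout EVs. Of 461 members tested, 4 were called higher and 0 lower in ATG7-/- EVs, where 0.141% of all genes were called, 0.0996% higher and 0.041% lower. In ATG12-/- EVs 2 were higher and 0 lower, where 0.105% of all genes were called, 0.0644% higher and 0.041% lower. DNAJC19P6, a copy of the mitochondrial import gene DNAJC19, had 0, 6.39 and 0 TPM in wild-type EVs, 234, 128 and 95.0 TPM in ATG7-/- EVs, and 111, 48.2 and 104 TPM in ATG12-/- EVs. Both knockouts lay above every wild-type EV library. Its log2 differences were 6.22 (SE 0.78, adjusted p = 0.0224) and 5.42 (SE 0.78, adjusted p = 0.0471), a call kept in 10 and 3 of 18 alternatives, while DNAJC19 had differences of 0.67 (SE 1.57) and 0.15 (SE 1.57). The other two called in ATG7-/- entered the test only through the group where they were high, so they are described without a p. H3F3AP4, identical to the coding sequence of the histone H3.3 gene H3F3A, had 37.4, 25.2 and 20.4 TPM in ATG7-/- EVs and was listed at 0 in the 6 other EV libraries. AC004980.2 had 7.74, 14.7 and 10.8 TPM in the same group and was also listed at 0 in the other 6, and its call was lost in 11 of 15 alternatives.

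No ribosomal protein copy was called in EVs between a knockout and wild type in limma, where 56 were tested, nor were any of the 49 tested members that match a ribosomal protein gene by sequence alone. At an unadjusted p under 0.05 there were 4 of the 56 for ATG7-/-, where 7.41% of all genes were, and 2 for ATG12-/-, where 7.94% were. Of the 49, 6 and 4 had such a p. RPL39P3 had log2 differences of 0.24 (SE 0.21) and 0.53 (SE 0.21). The coding ribosomal protein genes had 0 calls of 80 tested in both comparisons, with 12 and 14 at an unadjusted p under 0.05.

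In cells, the members called and named were of low level, and most were present in 1 genotype alone. Of 1638 members tested, 2 were called higher and 5 lower in ATG7-/- cells, where 0.2% of all genes were called, 0.0846% higher and 0.116% lower. In ATG12-/- cells 2 were higher and 4 lower, where 0.134% of all genes were called, 0.049% higher and 0.0846% lower. Of the 7 and 6 called, 5 and 5 entered the test only through the group where they were highest and so had to differ. Those named are given as a description, without a p. EIF4E2P1, a copy of the cap-binding gene EIF4E2, had 63.2, 25.3 and 17.3 TPM in wild-type cells and was listed at 0 in the other 15 libraries. The parent EIF4E2 was at 8.17 TPM ± 1.41 over the 9 cell libraries. AC131055.1, whose nearest coding sequence is ZMYM4, had 21.2, 4.25 and 17.4 TPM in wild-type cells and was listed at 0 elsewhere. Both reached the threshold through the wild-type cells alone.

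The other members named in cells were called in 1 knockout each, and of these PIN4P1 and AC069545.1 had also passed the filter without the group where they were highest. PIN4P1, a copy of the peptidyl-prolyl isomerase gene PIN4, had 14.6, 8.03 and 5.30 TPM in wild-type cells, 2.21, 5.55 and 3.77 TPM in ATG12-/- cells and was listed at 0 in ATG7-/- cells (adjusted p = 0.0246, a call kept in 9 of 18 alternatives). Its parent was also lower in ATG7-/- cells, with a log2 difference of -1.55 (SE 0.21, adjusted p = 0.0451), at 12.1, 14.9 and 14.2 TPM against 52.8, 47.0 and 34.2 TPM. PIN4 was the 1 parent of another member called in that comparison, out of 366 tested. AC069545.1 had 6.55, 5.24 and 3.57 TPM in wild-type cells, 5.73, 4.90 and 4.94 TPM in ATG12-/- cells and was listed at 0 in ATG7-/- cells (adjusted p = 0.0113). RAC1P9, a copy of the GTPase gene RAC1, had 10.1, 3.28 and 5.22 TPM in ATG7-/- cells and was listed at 0 elsewhere. IPO7P1, a copy of the nuclear import receptor gene IPO7, had 6.002, 4.90 and 4.49 TPM in ATG12-/- cells and was listed at 0 in the other cells. It was also found in EVs, at 7.98 to 13.8 TPM in ATG12-/- and 0 to 6.60 TPM in the other EVs. In both knockouts 0 of 190 ribosomal protein copies were called by limma. An unadjusted p under 0.05 was reached by 25 of them for ATG7-/-, where 14.4% of all genes reached it, and by 21 for ATG12-/-, where 15% did. Of 199 tested members that match a ribosomal protein gene by sequence alone, 0 and 1 were called.

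Between EVs and cells, most called members were lower in EVs, and 9 were higher in all 3 genotypes, as were 1.03% of all genes. In wild type 29 of 1833 members were higher in EVs and 584 lower, where 24.7% of all genes were called, 4.03% higher and 20.7% lower. In ATG7-/- 31 were higher and 258 lower, where 11.4% of all genes were called, 2.71% higher and 8.69% lower. In ATG12-/- 14 were higher and 264 lower, where 11.2% of all genes were called, 2.27% higher and 8.9% lower. The median log2 difference in wild type was -1.43 for members and -0.75 for all genes tested. A member that passed 1 TPM only through the cells had to be lower in EVs, as the 620 listed at 0 there did, so these counts are a description of the choice. In bulk samples, fewer vesicles or cells that carry an RNA and less of it in each cannot be told apart. The 3 comparisons use separate libraries and share 1 estimate of the spread.

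RPL39P3 was the most abundant ribosomal protein copy. It had 11141, 7804 and 9376 TPM in wild-type EVs, 9837, 9582 and 11541 TPM in ATG7-/- EVs and 14739, 14962 and 9418 TPM in ATG12-/- EVs. The values in cells were 1689, 1913 and 2455 TPM in wild type, 1843, 2803 and 3816 TPM in ATG7-/- and 4334, 4296 and 5481 TPM in ATG12-/-. Every EV library stood above every cell library, and among cells those of ATG12-/- were highest. The log2 differences between EVs and cells were 1.73 (SE 0.25, adjusted p = 0.000263), 1.70 (SE 0.25, adjusted p = 0.000525) and 1.31 (SE 0.25, adjusted p = 0.00405) in wild type, ATG7-/- and ATG12-/-. The parent RPL39 was at 929 TPM ± 123 in EVs and 102 TPM ± 33.1 in cells, with log2 differences of 2.79, 3.18 and 2.83. RPL39P3 was thus 11.8 times its parent in EVs and 31.3 times in cells, although the coding sequences are identical.

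The diverged RPL39 copies did not follow RPL39P3. RPL39P6 had 0 to 621 TPM in EVs and 0 to 126 TPM in cells, and was listed at 0 in 5 of 9 EV and 3 of 9 cell libraries. RPL39P26 had 0 to 312 TPM in EVs and 109 to 434 TPM in cells. Neither was called between EVs and cells, and both ranges overlapped.

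RPS28P7 and RPS23P8 are small-subunit copies. RPS28P7 had 639, 1897 and 758 TPM in wild-type EVs, 2081, 1851 and 2880 TPM in ATG7-/- EVs and 1936, 2380 and 2325 TPM in ATG12-/- EVs, against 478 to 1050 TPM over the 9 cell libraries. It was called higher in EVs of ATG7-/- (log2 1.26, SE 0.38, adjusted p = 0.0419) and ATG12-/- (log2 1.33, SE 0.38, adjusted p = 0.0342), and had a log2 difference of -0.16 (SE 0.38) in wild type. The tests of the difference between genotypes gave 1.42 (SE 0.53, adjusted p = 0.431) and 1.49 (SE 0.53, adjusted p = 0.36), so a genotype dependence was not shown. The parent RPS28 had 126 TPM ± 77.9 in EVs and 18.8 TPM ± 12.9 in cells. RPS23P8 had 176 TPM ± 82.2 in EVs, from 68.6 to 306 TPM, and 28.7 TPM ± 11.8 in cells, from 14.95 to 53.2 TPM, with no overlap. Its log2 difference was 2.54 (SE 0.51, adjusted p = 0.00286) in wild type, and it was called in both knockouts as well.

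Further ribosomal protein copies higher in EVs in all 3 genotypes were RPL23P8, RPS2P46 and RPS4XP22. RPL23P8 had 28.6 to 242 TPM in EVs and 0 to 26.5 TPM in cells, separated in all libraries. RPS2P46 had 4.38 to 20.6 TPM in EVs and was listed at 0 in 7 of the 9 cell libraries. RPS4XP22, named after its values were seen, had a mean of 17.9 TPM in EVs and 3.76 TPM in cells. Other copies were found in all cell libraries and in few EV libraries. RPS27AP13 had 165 to 302 TPM in wild-type cells and 85.0 to 291 TPM in the knockout cells. In EVs it was listed at 0 in 6 of 9 libraries and had 22.2 TPM in another, while the other two, both wild type, had 349 and 361 TPM, above every cell library. RPL23AP90 had 123 to 439 TPM in cells and 0 to 131 TPM in EVs, and was called lower in EVs of ATG12-/- (adjusted p = 0.0224).

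Of the other members, SRP9P1 was the most abundant that was higher in EVs in each genotype. It had 2123, 2688 and 3012 TPM in wild-type EVs, 3364, 3631 and 3444 TPM in ATG7-/- EVs and 3885, 3351 and 2958 TPM in ATG12-/- EVs. Cells had 220, 403 and 391 TPM in wild type, 620, 453 and 581 TPM in ATG7-/- and 817, 1050 and 991 TPM in ATG12-/-. The sets did not overlap, and the lowest EV library was above the highest cell library. The log2 differences were 2.48 (SE 0.23, adjusted p = 4.65e-06), 2.44 (SE 0.23, adjusted p = 7.76e-06) and 1.69 (SE 0.23, adjusted p = 0.000304). The parent SRP9 was listed at a mean of only 21.7 TPM in EVs and 12.2 TPM in cells, so that SRP9P1 was 146 and 50.3 times its parent, although its whole sequence occurs in SRP9.

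AC026403.1, the partial RPLP0 copy, had the largest log2 difference in wild type among the 20 members named for their level. It had 1974, 2146 and 2047 TPM in wild-type EVs, 1548, 1203 and 1275 TPM in ATG7-/- EVs and 1723, 1165 and 1840 TPM in ATG12-/- EVs, against 52.4 to 261 TPM in cells. The log2 differences were 4.40 (SE 0.35, adjusted p = 9.27e-07), 3.04 (SE 0.35, adjusted p = 6.67e-05) and 2.93 (SE 0.35, adjusted p = 9.1e-05). RPLP0 was also called higher in EVs in each genotype, at 572 TPM ± 228 in EVs and 82.8 TPM ± 30.2 in cells. EEF1A1P5, a copy of the translation elongation factor EEF1A1, had 662 to 880 TPM in EVs and 69.97 to 238 TPM in cells. It was 1389 nt long and 99.7% identical to EEF1A1, which had 147 TPM ± 35.6 and 28.6 TPM ± 10.6. Its log2 difference in wild type was 2.75 (SE 0.21, adjusted p = 6.69e-07). AC073349.2, with no parent found, had 47.4 to 126 TPM in EVs and 8.86 to 14.8 TPM in cells, and no 50-base window of it occurs in another gene on the same strand.

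Some abundant members did not separate EVs from cells. AL589880.1 had 1837 TPM ± 356 in EVs and 1698 TPM ± 296 in cells, and no comparison was called. AC093249.4 had 3675 TPM ± 1267 in EVs and 2391 TPM ± 723, also with no call. TECRP1, identical to a stretch of the fatty acid elongation gene TECR, had 442 TPM ± 115 in EVs and 191 TPM ± 89.3 in cells and was called higher in wild type (log2 1.17, SE 0.29, adjusted p = 0.00928) and ATG7-/- (log2 1.18, SE 0.29, adjusted p = 0.0171), with 0.71 (SE 0.29, adjusted p = 0.125) in ATG12-/-. Its parent TECR had nearly the same mean in both, at 42.5 TPM ± 19.4 and 44.9 TPM ± 22.2.

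**Figure D2:**
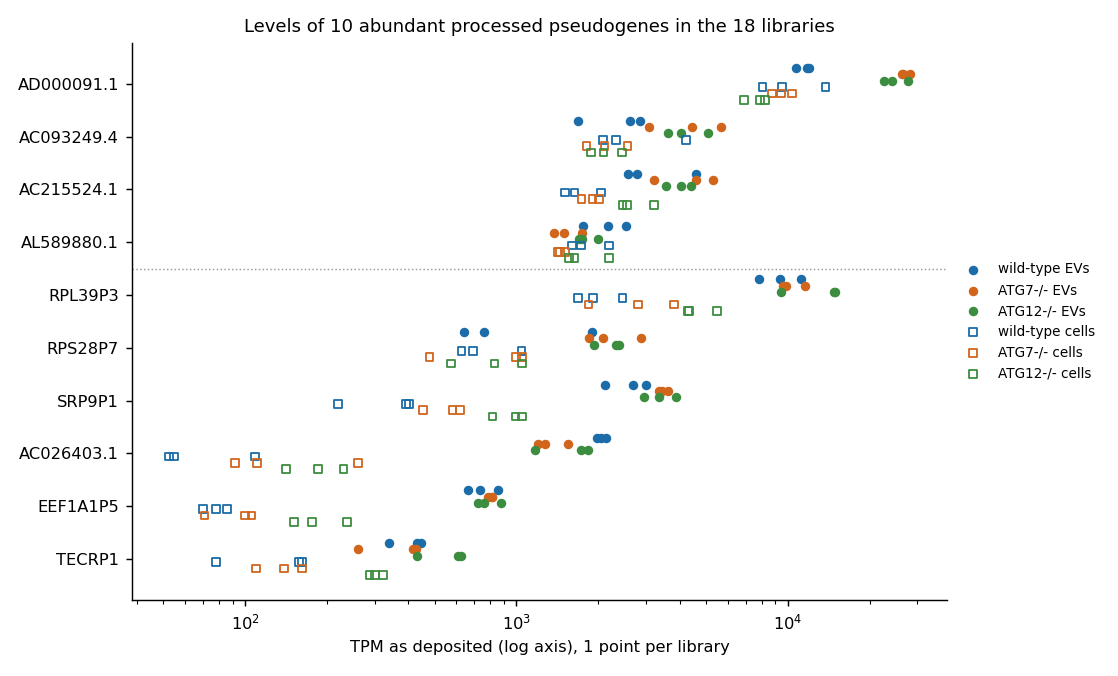
TPM as deposited of 10 abundant processed pseudogenes on a log axis, with 1 point per library; filled circles are EVs and open squares are cells, coloured by genotype. The 4 above the dotted line match a coding sequence on the opposite strand, and of these AD000091.1 and AC215524.1 also match HLA-F on their own strand. The 6 below the line are sense copies. SRP9P1, AC026403.1 and EEF1A1P5 have every EV library above every cell library, and AD000091.1 has its knockout EVs at 22510 to 28257 TPM.

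Members lower in EVs were mostly absent from many EV libraries. In all 3 genotypes 100 members were called lower, 10 ribosomal protein copies and 90 others, where 3.34% of all genes tested were. AL445928.1 had 29.6 to 205 TPM in the cell libraries and was listed at 0 in all 9 EV libraries. CYCSP10, a copy of the cytochrome c gene CYCS, had 69.0 to 211 TPM in cells and 0 to 99.5 TPM in EVs. AP003392.2 had 172 to 593 TPM in cells and was listed at 0 in 7 of 9 EV libraries. They lie in introns of genes on the opposite strand, AL445928.1 in DBT, CYCSP10 in EMC3-AS1 and AP003392.2 in CCDC84, and CYCSP10 is also within EMC3 on its own strand.

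The EV-to-cell difference of few members depended on genotype. When it was compared between ATG7-/- and wild type in limma, 13 members were called higher and 2 lower, where 0.284% of all genes were called, 0.223% higher and 0.0609% lower. For ATG12-/- 8 were higher and 1 lower, where 0.268% of all genes were called, 0.187% higher and 0.0811% lower. Of the 15 and 9, 13 and 7 entered the test only through the group where they were highest, mostly wild-type cells, and so had to differ. Apart from AD000091.1, the named ones were low. AC025423.2 had 5.93, 12.2 and 7.07 TPM in ATG7-/- EVs and was listed at 0 in the other 15 libraries. It lies within MDM2, which encodes the ubiquitin ligase of p53, and all of its windows are shared with another gene. HIGD1AP6, a copy of the hypoxia-inducible gene HIGD1A, had 20.02, 32.1 and 21.9 TPM in wild-type cells, was listed at 0 in all EV libraries and in ATG7-/- cells, and had 8.76, 0 and 0 TPM in ATG12-/- cells. No member named as a ribosomal protein copy was called. An unadjusted p under 0.05 was reached by 26 of the 221 for ATG7-/- and 21 for ATG12-/-, where 8.91% and 10.1% of all genes reached it. Of the 234 that match such a gene by sequence alone, 3 and 2 were called, among them AC008897.1, a match to RPS26 with 7.28, 14.6 and 11.9 TPM in wild-type cells.

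Among ribosomal protein copies, sequence shared with other genes went with the direction. Each member was divided into overlapping 50-base windows, the read length, and the share of windows also found in another gene's transcripts on the same strand was counted. In 25 ribosomal protein copies at least 50% of windows were shared. These summed to 13600 TPM ± 2684 in EVs (10532 to 17916) and 4198 TPM ± 1477 in cells (2491 to 6649). The 196 others of that family class summed to 1145 TPM ± 421 in EVs (652 to 1818) and 2047 TPM ± 345 in cells (1674 to 2862). The first set was higher in every EV library than in any cell library, and the second had its higher mean in cells, with overlap. Without RPL39P3 the shared set held 2666 TPM ± 810 in EVs and 1017 TPM ± 232 in cells.

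The sums of the other members lay the same way, but most of their genes did not. The 168 with at least 50% of windows shared summed to 29744 TPM ± 7890 in EVs (17862 to 36845) and 12354 TPM ± 1654 in cells (10786 to 16377). Without AD000091.1, the 167 with at least 50% of windows shared summed to 8632 TPM ± 729 in EVs (7118 to 9604) and 3147 TPM ± 677 in cells (2547 to 4401). The 1444 under 50% summed to 17354 TPM ± 2201 and 22151 TPM ± 2395. In wild type the median log2 difference was 1.19 for shared and -1.50 for unshared ribosomal protein copies, and -0.58 and -1.52 for the other members. Of the shared ribosomal protein copies 5 were called higher in EVs and 1 lower, while of the shared other members 6 were higher and 21 lower. The unshared had 6 higher and 56 lower, and 12 higher and 506 lower. Of all genes tested, 4.03% were higher and 20.7% lower. Members that passed 1 TPM only through the cells had to be lower in EVs, so the counts of members are a description. The 81 coding ribosomal protein genes had a median of 1.70, with 44 called higher and 1 lower. The 50% limit was chosen after values were seen, so no test is given, and the part of shared reads in these levels was not tested.

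**Figure D3:**
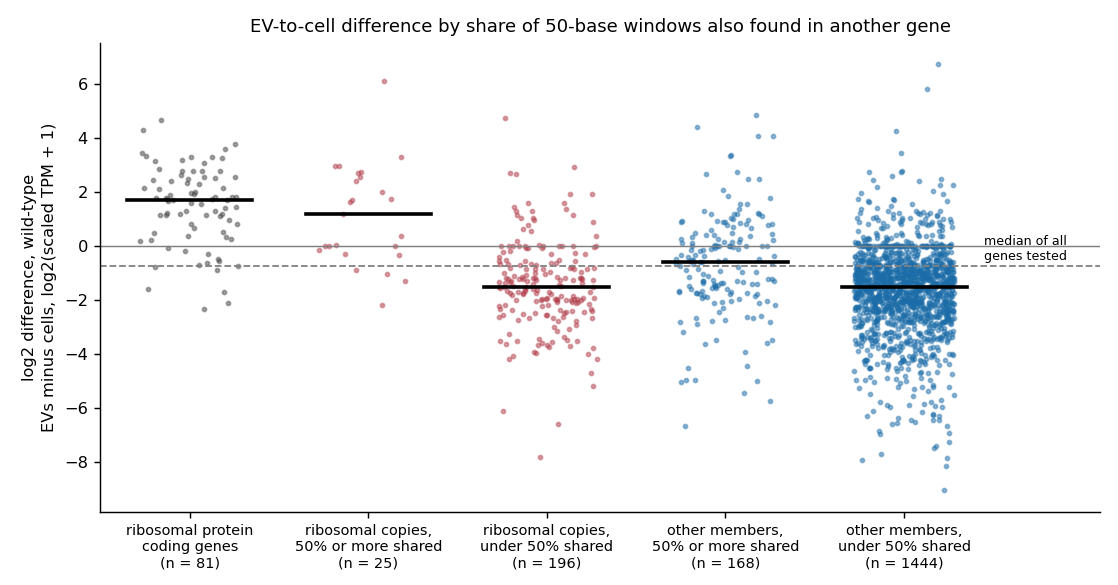
Log2 difference between wild-type EVs and cells, on log2(scaled TPM + 1), for coding ribosomal protein genes and for processed pseudogenes split by the share of their 50-base windows found in another gene on the same strand; points are genes, solid bars medians and the dashed line the median of all genes tested. The medians are 1.70, 1.19, -1.50, -0.58 and -1.52 from left to right, against -0.75 for all genes.

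Members called higher in EVs had a higher median identity to their parent than those called lower, a difference that was not tested. Only parents found by symbol were used here, so copies named after clones are left out. Among ribosomal protein copies in wild type, the median identity was 97.3% for the 11 called higher in EVs. It was 87.0% for the 57 called lower, 55 of them aligned, and 91.4% for the 153 not called, 150 of them aligned. Among the other members aligned to a parent found by symbol it was 94.9% for 13 called higher, 87.9% for 203 called lower and 90.5% for 405 not called. These aligned copies share their libraries and partly their sequence. Across them, Spearman's rho of identity and level was 0.45 in EVs and -0.08 in cells for ribosomal protein copies (n = 216). For the others it was 0.22 in EVs and -0.11 in cells (n = 621). By rank correlation, length went with level in cells only. Spearman's rho of length and level was -0.50 in cells and -0.10 in EVs for ribosomal protein copies (n = 221), and -0.50 in cells and 0.0031 in EVs for the others (n = 1612).

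Most members lay inside another gene, on its opposite strand. The strand setting of the quantification is not given, and without it reads of a member and of the gene opposite to it cannot be told apart, so the levels behind these counts, and the threshold that chose the members, may hold reads of either strand. By GENCODE 29, 1118 members (61.0%) were in an intron of a gene on the opposite strand, 188 (10.3%) overlapped an exon on the opposite strand, 82 (4.47%) were in an intron on the same strand, 26 (1.42%) overlapped an exon on the same strand and 419 (22.9%) overlapped no other gene. Of the 1118, 44 were also within a gene on the same strand. Among processed pseudogenes under the threshold the corresponding shares were 18.04%, 3.00%, 15.7%, 1.65% and 61.6%. Members within introns were mostly opposite to them, while the pseudogenes under the threshold were split more evenly between strands. Ribosomal protein copies showed this too, with 66.5% of members and 19.2% of those under the threshold opposite to an intron. The genes around members opposite to an intron had a median of 4.38 TPM in cells, with 82.6% at 1 TPM or more. Around pseudogenes of that position under the threshold it was 1.35 TPM, with 55.1%. For introns on the same strand the values were closer, 2.49 TPM and 68.3% for members against 1.87 TPM and 61.0%. For members opposite to an intron, level of the member and of the gene around it had a Spearman's rho of 0.17 in cells and 0.0080 in EVs (n = 1118).

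**Figure D4:**
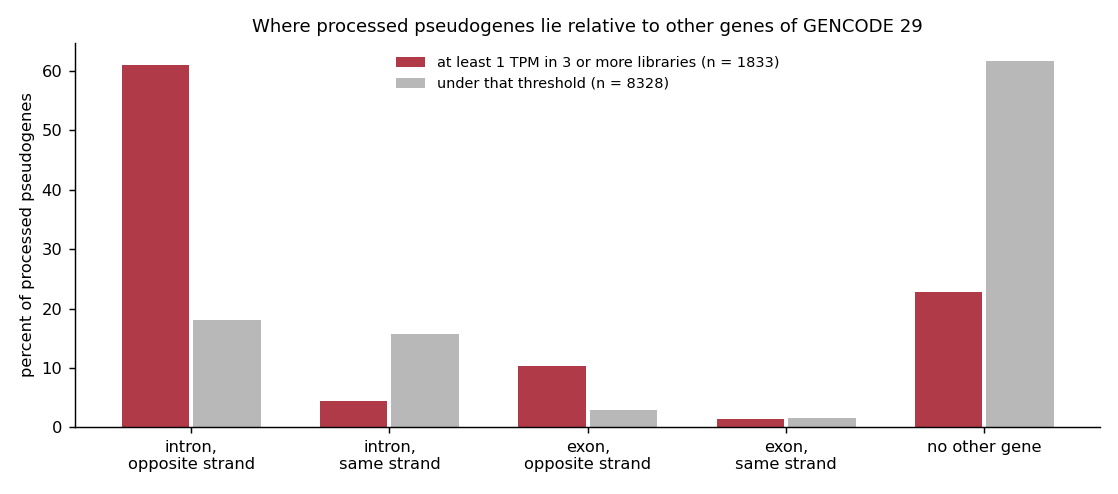
Percent of processed pseudogenes in each position relative to other genes of GENCODE 29, for the 1833 members and the 8328 under the threshold. The strand setting of the quantification is not given; introns on the opposite strand hold 61.0% of members and 18.04% of the others, and introns on the same strand 4.47% and 15.7%.

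The EV-to-cell difference varied with position. In wild type 419 of the 1118 members opposite to an intron (37.5%) were called lower in EVs and 6 higher, with a median log2 difference of -1.71. Of the 419 that overlapped no other gene, 93 (22.2%) were lower and 20 (4.77%) higher, with a median of -0.98. Of all genes tested, 20.7% were lower and 4.03% higher, with a median of -0.75, so members with no other gene were near that share. Members that passed 1 TPM only through the cells had to be lower in EVs, so these counts are a description. Members opposite to an intron that reached 1 TPM numbered 155 to 196 in an EV library and 576 to 841 in a cell library, and those with no other gene 96 to 122 and 175 to 252. In sum, members opposite to an intron held 24705 TPM ± 3810 in EVs (19589 to 30389) and 19715 TPM ± 1853 in cells (16381 to 22664). Without RPL39P3 the direction was the opposite one, with 13772 TPM ± 2094 in EVs and 16534 TPM ± 2104 in cells. Those with no other gene held 8970 TPM ± 892 in EVs (7752 to 10439) and 5950 TPM ± 552 in cells (5249 to 6644), with every EV library above every cell library. Much of this difference lay in AC026403.1, with means of 1658 TPM in EVs and 138 TPM in cells, and EEF1A1P5, with 781 and 120 TPM. AL031229.1, also with no other gene, went the other way, at 407 and 689 TPM. The sum without these genes was not computed.

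The families differed in how many of their copies were found. By symbol the members had 458 parents, 60 of them ribosomal protein genes, and 307 parents had 1 member. The most members came from RPL23A, with 21 of its 84 copies in the table, followed by the RNA-binding protein gene HNRNPA1 with 17 of 70, RPL7 with 13 of 61, the glycolytic gene GAPDH with 12 of 59 and the cyclophilin gene PPIA with 11 of 86. The copies of GAPDH summed to 10.8 TPM ± 5.94 in EVs and 19.7 TPM ± 9.32 in cells, against 568 TPM ± 110 and 84.7 TPM ± 23.9 for GAPDH itself. For PPIA the copies were at 5.58 TPM ± 11.3 in EVs and 91.4 TPM ± 68.7 in cells, and PPIA was at 55.2 TPM ± 17.9 and 29.5 TPM ± 7.67. HNRNPA1 copies held 15.4 TPM ± 9.75 in EVs and 66.3 TPM ± 13.7 in cells, and HNRNPA1 39.7 TPM ± 23.9 and 11.8 TPM ± 5.15. In these 3 families the mean of the copies was higher in cells and that of the parent higher in EVs. The copies of RPL23A were variable in EVs, at 107 TPM ± 162, and were 380 TPM ± 128 in cells. The sum of the RPL7 copies is not given here. Copies summed to more than their parent in 77 families in EVs and 162 in cells. The threshold that chose the members was reached by more of them in cells. Higher sums of copies in cells are thus partly set by that choice, and these sums and counts are a description.

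The coding parents as a class were not called like their copies. Of the 382 tested parents of other members, 63 were higher in EVs and 27 lower in wild type, 52 and 8 in ATG7-/-, and 40 and 14 in ATG12-/-, with medians of 0.34, 0.39 and 0.05 on the log2 scale. The ribosomal protein genes had 44, 50 and 44 of 81 called higher, and 1, 0 and 0 lower. Of all genes tested, 4.03%, 2.71% and 2.27% were called higher and 20.7%, 8.69% and 8.9% lower. Copies that passed 1 TPM only through the cells had to be lower in EVs, so the contrast with their parents is a description. Across members, the EV-to-cell log2 difference of a copy and of its parent in wild type had a Spearman's rho of 0.16 for ribosomal protein copies (n = 219) and 0.083 for the others (n = 616), over values from the same libraries.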

How the data were processed

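RNA of HEK293T EVs and cells was measured in 18 libraries of 6 groups, grouped by their labels. The authors deposited 1 table of TPM values per transcript, with each library summing to 1000000. Salmon 0.14 and DESeq2 are named in the submitters' processing notes with no role, and the sources used here give no strand setting, genome build or annotation for the quantification. Transcripts were matched by identifier to GENCODE 29 (202941 of 203027; the other 86 held at most 0.0384% of a library) and summed to 57865 genes.

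Median-of-ratios scaling used the genes that reached 1 TPM in all libraries of a fit. The test was limma 3.58.1 (R 4.3.3), with trend, on log2(scaled TPM + 1), for genes that reached 1 TPM in 3 or more libraries of the fit, and p-values were adjusted by Benjamini-Hochberg over all genes tested, with a threshold of 0.05. Knockout comparisons were fitted on the 9 EV or the 9 cell libraries, and EV-to-cell comparisons and their differences on all 18. A called member is said to have entered a test through 1 group where it reached 1 TPM in fewer than 3 fitted libraries outside the group of its highest mean. A log2 difference on this scale understates the change of low genes. Printed TPM are as deposited, and errors are SDs over libraries or limma's standard errors (SE). A gene at 0 may be a failed estimate and is described as listed at 0. Shares of a library were compared by exact permutation within genotypes.

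Parents were found by symbol or, for clone-style names, by blastn 2.17.0 (at least 70% identity over at least 50% of the transcript). Positions were found with bedtools 2.31.1. Named were the 8 ribosomal protein copies and 12 other members of highest mean TPM, up to 5 members per direction and comparison with the largest fold among those past the threshold without overlap and with at least 5 TPM in the higher group, their parents, the 5 largest families and the members nearest the threshold. Only some are printed. Members and lists were chosen with earlier results of these data known. For that reason no p is given for a sum over the members alone, though the sums tested without a threshold rest largely on them. Alternatives covered the pseudocount, filter, scaling, trend, a replicate block, short transcripts and each library in turn. The fits were tested on simulated data. Members on chromosome Y are not reported singly.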

Additional observations from a re-analysis of the deposited data

Results flagged for a closer look

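The test of whether the EV-to-cell difference itself differed between a knockout and wild type (limma, adjusted over all genes) called 15 members for ATG7-/- and 9 for ATG12-/-. Of these, 13 and 7 entered the test only through the group where they were highest. Their p restates that choice and is no support for a difference. EIF4E2P1, AC131055.1, HIGD1AP6, AC008897.1 and CR769776.2, all listed at 0 in every EV library, are of this kind through wild-type cells, RAC1P9 through ATG7-/- cells and AC025423.2 through ATG7-/- EVs. EIF4E2P1 passed with adjusted p = 0.000193 for ATG7-/- and 0.00015 for ATG12-/-, and AC131055.1 with 0.00575 for each in limma. HIGD1AP6 passed with limma's adjusted p = 0.0338 for ATG7-/-, a call kept in 8 of 27 alternatives. AC008897.1, with 7.28, 14.6 and 11.9 TPM in wild-type cells and opposite to an exon of COL4A3BP, passed with limma's adjusted p = 0.0494 for ATG7-/-, kept in 5 of 27. CR769776.2, with 4.72, 2.21 and 8.56 TPM in wild-type cells and 0 in every other library, passed with limma's adjusted p = 0.0135 for ATG12-/-. RAC1P9, found in ATG7-/- cells, passed with limma's adjusted p = 0.0072, and AC025423.2, found in ATG7-/- EVs alone, with 0.000687.

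Named members that had also passed the filter without that group were AC012358.2 and AD000091.1. AC012358.2 had 4.82, 4.82 and 6.25 TPM in wild-type cells, 0.527, 0.901 and 0.909 TPM in ATG12-/- cells, 0.309, 1.97 and 2.84 TPM in ATG12-/- EVs and 0 in the other EVs, and passed with limma's adjusted p = 0.0208. AD000091.1 passed for ATG12-/- with limma's adjusted p = 0.000773. For the summed share of the members other than ribosomal protein copies, the EV-to-cell difference exceeded that of wild type by 0.84 in ATG7-/- and by 0.80 in ATG12-/- on the log2 scale. Without AD000091.1 these differences were 0.43 and 0.38.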

How the results depend on the processing

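Shares of members were sensitive to a few RNAs. With transcripts under 200 nt left out, which removes RPL39P3, the log2 EV-to-cell difference of the ribosomal protein copies went from 1.26 to -0.0706. That of the other members was 0.43, and was 0.079 without these transcripts, 0.048 without mitochondrial and small noncoding RNA and 0.038 without AD000091.1. Leaving out 1 library gave 1.19 to 1.32 and 0.39 to 0.48, and -1.35 to -1.28 and -0.65 to -0.50 for the ratios to parents.

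Counts of called members moved in the knockout comparisons. For ATG7-/- EVs the 4 became 1 with no filter, and 1 to 4 with a library left out. For ATG12-/- EVs the 2 became 1 with a pseudocount of 0.1 or 5, no filter, no scaling or scaling over protein-coding genes, 0 without trend and with sample weights, and 1 to 5 with a library left out. For ATG7-/- cells the 7 became 13 and 1 with pseudocounts of 0.1 and 5, 1 with a filter at 5 TPM, and 1 to 10 with a library left out. For ATG12-/- cells the 6 became 3 and 2 with those pseudocounts, 1 with the filter, and 2 to 9 with a library left out. Between EVs and cells the 613 of wild type became 331 with the filter (502 to 603 with a library left out). The 289 of ATG7-/- ranged over 187 to 314, lowest without ATG7-/- cell library 1. The 278 of ATG12-/- became 169 with a pseudocount of 5 and ranged over 147 to 294, lowest without ATG12-/- cell library 1. The tests of a differing EV-to-cell difference went from 15 to 2 with the filter, 4 without trend and 6 to 23 with a library left out for ATG7-/-, and from 9 to 2, 3 and 4 to 15 for ATG12-/-. The differences of 0.84 and 0.80 in share ranged over 0.78 to 0.88 and 0.74 to 0.84. The cause of these moves was not tested. Without scaling, the median log2 difference of all genes in wild type was -0.48, not -0.75.

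With the replicate number as a block, calls were 1 in each EV comparison and 1 in each cell comparison. No pairing by number was detected, since deviations of same-numbered libraries correlated between -0.0337 and 0.0261 over 21 pairs. These correlations cannot show whether same-numbered samples came from the same culture.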
